A study of Mus musculus with 30 samples.

Results

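Tbr1 lies on mouse chromosome 2, and the genes described here are 38 genes of the stretch from Cytip to Scn7a, with Tbr1 among them. On the P0.5 arrays 3 further gene models of the stretch were measured (Gm13570, Gm13582 and Gm13629). They are no members, 0 of them were called between KO and WT in any region, and places along the chromosome are counted among the members. They were chosen by position, as the genes flanking the Tbr1 locus, in a rule that also names the comparison of Tbr1 null (KO) with wild-type (WT) tissue. All 38 were measured on the P0.5 arrays, of 19938 genes, and 36 on the E14.5 arrays, of 18194 genes. Ccdc148 and Slc38a11 were not measured at E14.5. The differences between KO and WT are therefore given as a description. Tests are kept to what the rule did not use: the comparison of wild-type regions, and relatives of these genes elsewhere in the genome. The difference between regions in the KO effect is built from values that the rule names, so its p-values are a description as well.

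The study profiled total RNA of mouse cortex on expression arrays at E14.5, in the embryo, and at P0.5, in the newborn. At E14.5 there were 3 arrays of KO and 3 of WT neocortex. At P0.5 there were 4 KO and 4 WT arrays of each of frontal, parietal and occipital cortex, 24 arrays in all. KO animals were homozygous for a Tbr1 null allele and WT animals carried none. The allele was kept as a heterozygous stock of the CD1 background, and mating heterozygotes gave the null animals. The strain in which the allele was made is not given in the sources used here. Every KO array carries the null allele together with whatever stretch of chromosome 2 came with it, so the parts that the 2 play in a difference cannot be told apart. The labels do not say whether same-numbered arrays share an animal.

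Tbr1 encodes a T-box transcription factor of early-born glutamatergic neurons of the cortex, best known in layer 6 and the subplate. A gene disrupted in embryonic stem cells is passed on with the DNA on either side of it, and neighbouring genes stay with the allele until recombination separates them. The neighbours of Tbr1 have unrelated roles: Psmd14 is a proteasome subunit, Slc4a10 a bicarbonate transporter of neurons, Gcg the glucagon precursor, Ifih1 a sensor of viral RNA, and the far end of the stretch holds a cluster of sodium channel genes.

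Psmd14, Tbr1 and Slc4a10 lie next to each other and were the members that passed the threshold of the fit in all 3 regions. The 250 bases upstream of their annotated starts are shown for that reason, from RefSeq with the build GRCm38.p6, on the plus strand. Capitals mark GGTGTG, the core of the T-box half-site, looked for on both strands.
Psmd14 (chr2:61711444-61711693): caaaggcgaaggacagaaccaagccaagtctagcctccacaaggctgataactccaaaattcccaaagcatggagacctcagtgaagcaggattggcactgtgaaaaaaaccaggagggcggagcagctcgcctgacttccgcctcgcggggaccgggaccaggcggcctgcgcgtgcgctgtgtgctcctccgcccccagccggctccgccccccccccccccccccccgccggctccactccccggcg
Tbr1 (chr2:61804203-61804452): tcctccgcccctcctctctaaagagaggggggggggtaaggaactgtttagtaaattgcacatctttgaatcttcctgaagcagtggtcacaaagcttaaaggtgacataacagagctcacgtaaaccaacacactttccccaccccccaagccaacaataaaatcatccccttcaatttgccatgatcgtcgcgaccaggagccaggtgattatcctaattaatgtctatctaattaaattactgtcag
Slc4a10, first start (chr2:62046265-62046514): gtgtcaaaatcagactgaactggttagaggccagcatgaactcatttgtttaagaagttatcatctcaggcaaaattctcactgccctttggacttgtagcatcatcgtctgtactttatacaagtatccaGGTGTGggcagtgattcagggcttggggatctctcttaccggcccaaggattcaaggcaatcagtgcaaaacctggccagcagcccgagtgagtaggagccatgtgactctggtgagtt

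The core was found once in the first window of Slc4a10 and not in the windows of Psmd14 and Tbr1, nor in that of the second annotated start of Slc4a10. Of the 36 members with an entry in the promoter table, 4 held the core, namely Pkp4, Slc4a10, Tanc1 and Upp2. Those 4 are 11.1% of the members, beside 18.3% of all 27025 genes of the table. The longer half-site GGTGTGA, which contains the core, was in the window of 1 member, Upp2, or 2.78%, beside 3.84% of all genes. A match is a description of these letters and not of binding.

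Of the 38 members, 11 passed an adjusted p of 0.05 between KO and WT in at least 1 region at P0.5, that is 28.9%, against 8.43% of all genes tested. These were Acvr1, Rbms1, Psmd14, Tbr1, Slc4a10, Gcg, Fap, Ifih1, Csrnp3, Scn1a and Scn9a. The p came from limma, fitted to all 19938 genes and adjusted by Benjamini-Hochberg, and such a gene is said to be called. Because the rule names this comparison, the counts are read as a description only. The other 27 members had regional differences between -0.49 (Acvr1c, occipital) and 0.45 (Fign, occipital) on the log2 scale.

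In frontal tissue 9 members were called, beside 7.52% of all genes. They were 6 of higher signal in KO (4.7% of all genes), Rbms1, Slc4a10, Gcg, Fap, Ifih1 and Scn1a, and 3 of lower signal (2.81%), Psmd14, Tbr1 and Csrnp3. In parietal tissue 8 members were called, beside 1.81% of all genes. Slc4a10, Fap, Ifih1, Scn1a and Scn9a were higher (1.06% of all genes) and Acvr1, Psmd14 and Tbr1 lower (0.747%). In occipital tissue 5 members were called, beside 1.34% of all genes. Slc4a10, Gcg and Scn9a were higher (0.762%) and Psmd14 and Tbr1 lower (0.577%). Groups of 4 arrays that do not overlap are another description. KO arrays all lay above WT arrays for 6 members in frontal tissue (6.42% of all genes), 8 in parietal (3.68%) and 6 in occipital tissue (3.76%). They all lay below for 3 in frontal (6.5%), 4 in parietal (3.73%) and 2 in occipital tissue (2.5%). The median size of the difference, without sign, was 0.17 over the members and 0.13 over all genes in frontal tissue. It was 0.19 against 0.07 in parietal and 0.13 against 0.08 in occipital tissue.

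The differences were largest beside Tbr1. Among the 12 members within 6 genes of it on either side, 6 were called in some region, beside 8.43% of all genes. Their median difference, as the mean size over the 3 regions, was 0.31. Of the 12 members 7 to 12 genes away, 0 were called and the median was 0.14. A count of 0 among 12 genes is close to the share of all genes and is not read as a result. Of the 13 members farthest out, 4 were called, Acvr1 at the Cytip end and Csrnp3, Scn1a and Scn9a at the Scn7a end, and the median was 0.10, the same as over all genes. These bands count genes, not bases, and were drawn with the values known. The 6 genes that follow Tbr1, from Slc4a10 to Gca, each had a KO mean above the WT mean in all 3 regions. In all, 13 of 38 members did so, beside 15.8% of all genes, and 6 had a KO mean below the WT mean in all 3, beside 17.4%.

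**Figure D1:**
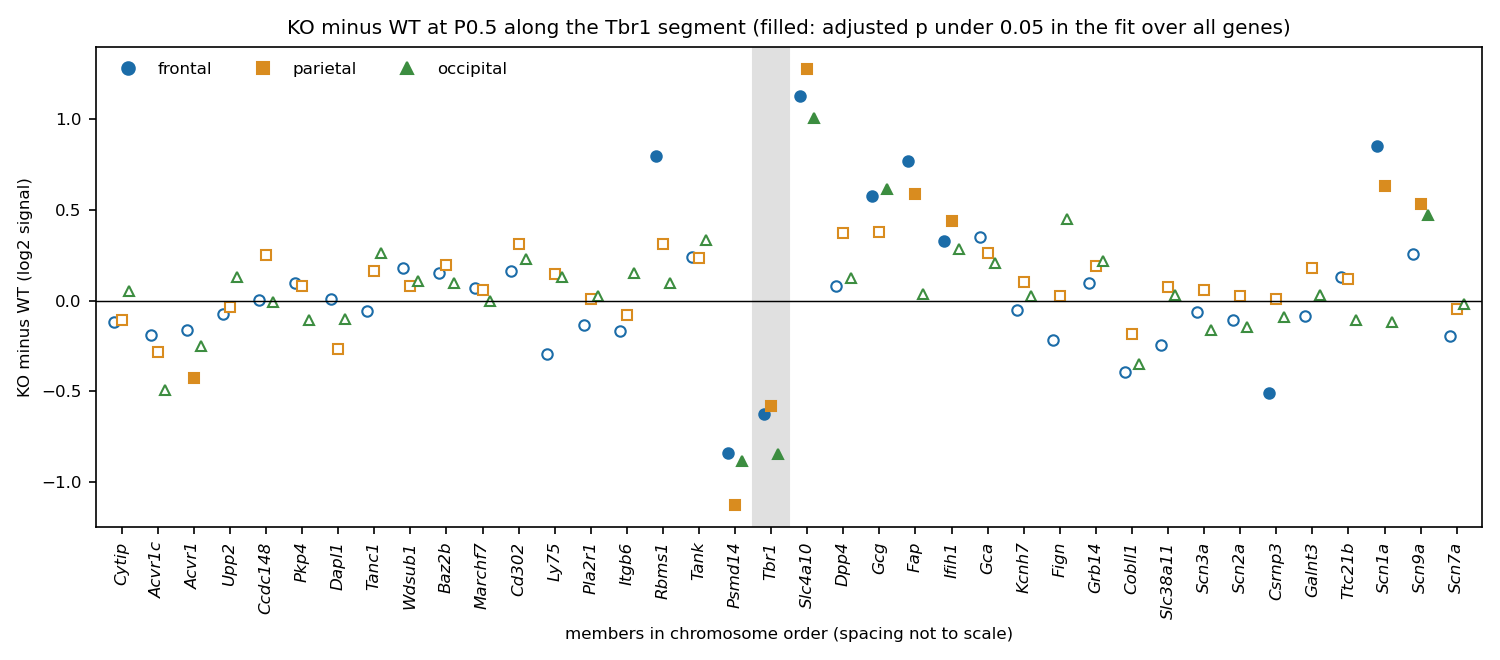
Difference in mean log2 signal between KO and WT (vertical axis) for each of the 38 members in chromosome order (horizontal axis, spacing not to scale), with circles for frontal, squares for parietal and triangles for occipital tissue, n = 4 KO and 4 WT arrays each. Filled symbols passed an adjusted p of 0.05, and the grey band marks Tbr1. The extremes sit on either side of Tbr1, with Psmd14 at -1.12 and Slc4a10 at 1.27 in parietal tissue.

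Facts of the arrays touch these differences. In frontal tissue 3 measured Y-linked genes had a mean level of 5.39 on KO and 9.04 on WT arrays. In parietal cortex these levels were 7.23 and 8.31, and in occipital cortex 8.35 and 9.32. In frontal tissue Xist was at 12.0 to 12.2 on the KO arrays and 5.65 to 6.39 on the WT arrays. The Y-linked mean ran there from 5.09 to 5.99 on the KO and from 8.99 to 9.15 on the WT arrays. All frontal KO arrays thus differed from all frontal WT arrays in sex-linked transcripts. The parts of sex and genotype in a frontal difference cannot be told apart. With the Y-linked mean as a covariate, the 6 higher calls of frontal tissue became 3, Rbms1, Slc4a10 and Scn1a, and the 3 lower calls were kept. Of 4 astrocyte markers, 4 were called higher in frontal, 0 in parietal and 1 in occipital tissue. Frontal Aqp4 rose by 0.73 (limma adjusted p = 0.0167). The mean level of this list was 8.54 on KO and 7.86 on WT frontal arrays, with overlap (7.96 to 8.88 against 7.66 to 8.10). Parietal KO arrays (8.34 to 8.66) all lay above their WT arrays (8.01 to 8.29). Occipital KO arrays (8.77 to 8.90) did so too (WT 8.13 to 8.37). The astrocyte list was thus higher in KO in all 3 regions, with median differences of 0.76, 0.26 and 0.61. In frontal tissue 2 of 5 microglia markers rose, C1qa and C1qb, and 1 of 4 vessel markers fell, Kdr. The 5 measured markers of cortical glutamatergic neurons had median differences of -0.01, 0.07 and 0.06 in frontal, parietal and occipital tissue. Of the 5, Neurod6 fell, by 0.46 in frontal and by 0.43 in occipital tissue, and the other 4 were not called. Emx1, one of those 4, lay at 8.20 or above on every P0.5 array. The part of these markers in the members' differences was not tested. In bulk tissue, fewer cells of a type and less RNA per cell cannot be told apart. WT frontal replicate 4 and KO parietal replicate 2 stood apart, with 5.87% and 5.84% of genes over 0.5 from the mean of the rest of their group, against 0.251% to 2.62% on the other P0.5 arrays. Without the first the 9 frontal calls were kept, and without the second Fap alone of the 8 parietal calls was lost.

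Tbr1 itself was lower in KO in every region, but its signal did not disappear. In frontal tissue its log2 signal was 9.90, 9.63, 9.48 and 9.90 on the KO arrays and 10.36, 10.21, 10.60 and 10.24 on the WT arrays. In parietal tissue it was 9.65, 9.91, 9.49 and 9.72 in KO and 10.16, 10.14, 10.43 and 10.37 in WT. In occipital tissue it was 9.25, 9.33, 9.42 and 9.07 in KO and 9.73, 10.21, 10.10 and 10.41 in WT. All KO arrays lay below all WT arrays of their region. The differences were -0.63 (SE 0.124) in frontal, -0.58 in parietal and -0.84 in occipital tissue, a mean of -0.68 or 1.61-fold. Where the probes lie relative to the disrupted part of the gene is not given in the sources used here, so this signal does not measure loss of the protein.

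Psmd14, directly before Tbr1 in chromosome order, encodes the deubiquitinase of the proteasome lid and had the largest decrease of any member. In frontal tissue its log2 signal was 10.32, 10.15, 10.12 and 10.36 in KO and 11.13, 11.21, 11.02 and 10.93 in WT. In parietal tissue it was 10.17, 10.24, 9.79 and 9.99 in KO and 10.95, 11.19, 11.34 and 11.21 in WT. In occipital tissue it was 10.54, 10.18, 10.31 and 10.25 in KO and 11.11, 11.31, 11.34 and 11.07 in WT. The genotypes did not overlap in any region, and the 12 WT arrays all lay above the 12 KO arrays. The differences were -0.84 (SE 0.0991), -1.12 and -0.88 in the same order of regions, a mean of -0.95 or 1.93-fold. On these arrays Psmd14 stood at the 95.9th percentile of genes by mean signal.

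Slc4a10, directly after Tbr1, encodes a sodium-driven bicarbonate transporter that raises pH in neurons, and it had the largest increase. In frontal tissue its log2 signal was 10.80, 10.71, 10.90 and 10.80 in KO and 9.66, 9.81, 9.59 and 9.66 in WT. In parietal tissue it was 10.72, 10.90, 10.66 and 10.93 in KO and 9.62, 9.52, 9.39 and 9.58 in WT. In occipital tissue it was 10.71, 10.77, 10.72 and 10.65 in KO and 9.56, 9.84, 9.65 and 9.80 in WT. Every KO array lay at or above 10.65 and every WT array at or below 9.84. The differences were 1.12 (SE 0.0738), 1.27 and 1.00, a mean of 1.13 or 2.19-fold.

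**Figure D2:**
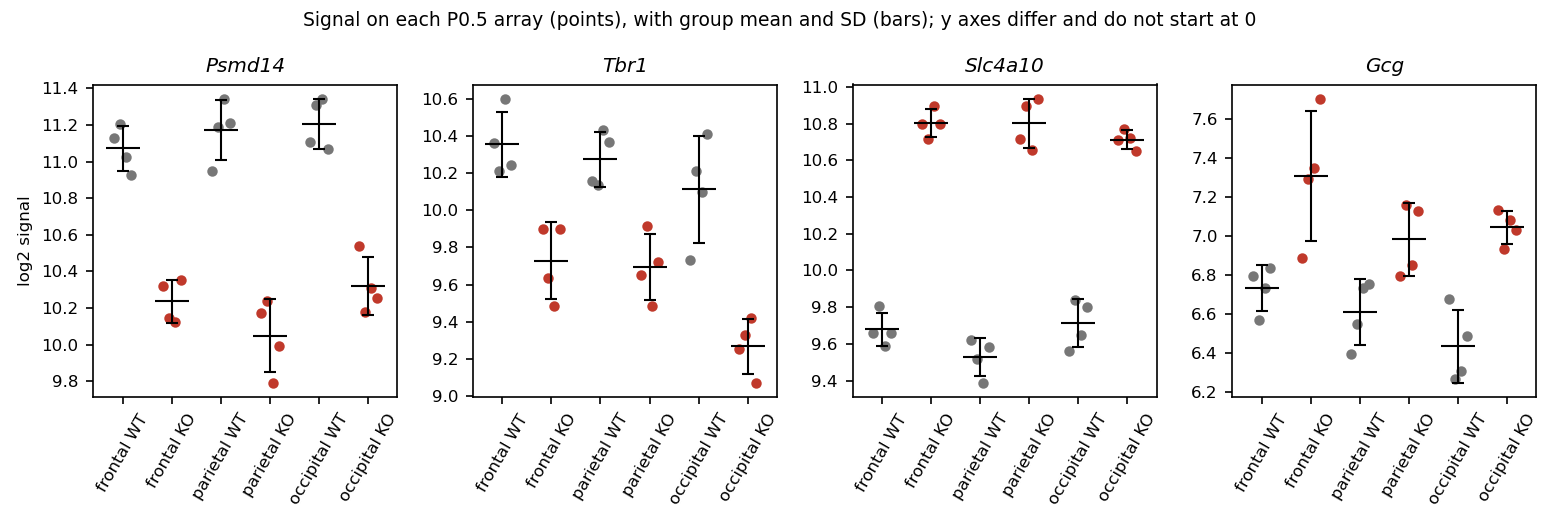
Log2 signal (vertical axis, a scale of its own for each gene) of Psmd14, Tbr1, Slc4a10 and Gcg on each of the 24 P0.5 arrays (points, WT grey and KO red), by region and genotype on the horizontal axis, with the mean and SD of 4 arrays as bars. KO and WT arrays of a region do not overlap for any of the 4 genes, with KO lower for Psmd14 and Tbr1 and higher for Slc4a10 and Gcg.

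Gcg, which encodes proglucagon, was the only other member whose genotypes did not overlap in any of the 3 regions. In frontal tissue its log2 signal was 6.89, 7.29, 7.35 and 7.70 in KO and 6.79, 6.57, 6.73 and 6.84 in WT. In parietal tissue it was 6.79, 7.16, 6.85 and 7.13 in KO and 6.39, 6.55, 6.73 and 6.75 in WT. In occipital tissue it was 7.13, 6.93, 7.08 and 7.03 in KO and 6.67, 6.27, 6.31 and 6.48 in WT. The lowest KO and highest WT arrays of frontal and of parietal tissue lay close together, and the occipital arrays were well apart. The differences were 0.58 (SE 0.128), 0.38 and 0.61, and the occipital call was lost without WT replicate 2 or 3. The mean signal of Gcg stood at the 31.7th percentile of genes, so these are differences near the dim end of the range. Over all genes, 0.572% were higher in KO and 0.401% lower without overlap in all 3 regions, and among the members these were Slc4a10 and Gcg, and Psmd14 and Tbr1.

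Tank and Dpp4, each next but one to Tbr1, differed less. Tank encodes an adaptor of TRAF signalling. Its frontal signal was 8.46, 8.20, 8.19 and 8.48 in KO and 8.22, 8.08, 8.09 and 7.99 in WT. Its parietal signal was 8.16, 9.06, 7.98 and 8.15 in KO and 7.94, 8.11, 8.25 and 8.13 in WT. Its occipital signal was 8.48, 8.22, 8.32 and 8.27 in KO and 8.11, 8.11, 8.02 and 7.74 in WT. The genotypes overlapped in frontal and parietal tissue and not in occipital tissue, and the parietal value rested on KO replicate 2, without which the difference of 0.23 became -0.01.

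Dpp4 encodes a serine peptidase of the cell surface. Its frontal signal was 6.85, 7.17, 7.02 and 6.85 in KO and 7.16, 6.50, 6.51 and 7.40 in WT. Its parietal signal was 6.95, 6.94, 6.82 and 6.81 in KO and 6.99, 6.48, 6.40 and 6.17 in WT. Its occipital signal was 6.98, 7.06, 6.68 and 6.79 in KO and 7.02, 6.57, 6.48 and 6.94 in WT. The genotypes overlapped in every region, with differences of 0.08, 0.37 and 0.12 (SE 0.172). The member next after Slc4a10 thus showed a difference within the spread of its arrays.

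Past Dpp4 and Gcg, the stretch holds Fap and Ifih1. Fap encodes a peptidase closely related to the product of Dpp4 and known from reactive fibroblasts. It was higher in KO by 0.77 (SE 0.136) in frontal and 0.59 in parietal tissue, without overlap in either, and by 0.03 in occipital tissue. Its parietal call was lost without KO replicate 2 or 4 or WT replicate 2 or 4. The 5 meningeal and fibroblast markers had a median difference of -0.40 in frontal and -0.18 in parietal tissue, and 0 of them were called in any region. Their mean level varied widely, from 7.49 to 9.19 on KO and from 7.22 to 9.96 on WT frontal arrays. The lack of a call is therefore not read as the lack of a shift. Ifih1 encodes the RNA sensor MDA5, and it was higher by 0.33 (SE 0.0951), 0.44 and 0.29 in frontal, parietal and occipital tissue. The genotypes of Ifih1 did not overlap in parietal and occipital tissue. The frontal call of Ifih1 was lost when any of 5 arrays was left out (KO replicates 1, 2 and 4 and WT replicates 2 and 3). Gca, a calcium-binding protein, was higher by 0.21 to 0.35 and was called in no region, and Kcnh7, a potassium channel, lay between -0.05 and 0.10.

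On the other side of Tbr1, the RNA-binding protein gene Rbms1 was higher mainly in frontal tissue. Its frontal log2 signal was 8.85, 8.95, 9.04 and 9.01 in KO and 8.21, 7.96, 8.26 and 8.24 in WT, its parietal signal 8.83, 8.89, 8.52 and 8.94 in KO and 8.60, 8.52, 8.46 and 8.35 in WT. Its occipital signal was 8.58, 8.58, 8.37 and 8.38 in KO and 8.32, 8.49, 8.57 and 8.16 in WT. The genotypes were apart in frontal tissue, overlapped at the edge in parietal tissue and were mixed in occipital tissue. The differences were 0.79 (SE 0.0967), 0.31 and 0.09. Acvr1, a type I receptor for bone morphogenetic proteins near the Cytip end, was lower by 0.16, 0.43 and 0.25 (SE 0.104), with no overlap in parietal tissue. Its parietal call was lost without any of 6 of the 8 arrays. Its neighbour Acvr1c, a receptor for nodal and activins, lay between -0.49 and -0.19 and was called in no region.

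The sodium channel cluster was not uniform. Scn1a, which encodes the channel Nav1.1 known from interneurons, had a frontal log2 signal of 8.79, 8.85, 8.88 and 9.04 in KO and 8.25, 8.26, 7.94 and 7.72 in WT. Its parietal signal was 8.83, 8.90, 8.41 and 8.95 in KO and 8.11, 8.23, 8.14 and 8.11 in WT. Its occipital signal was 8.61, 8.73, 8.45 and 8.55 in KO and 8.26, 9.04, 8.94 and 8.57 in WT. KO arrays were all above WT arrays in frontal and parietal tissue, by 0.85 (SE 0.138) and 0.63, and were mixed with them in occipital tissue, at -0.12. The 5 interneuron markers, 4 of them on chromosome 2 themselves, had median differences of 0.06, 0.02 and 0.21 in the 3 regions, and 0 of them were called. The parietal call of Scn1a was lost without KO replicate 4.

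Scn9a, which encodes Nav1.7, known from sensory neurons, was higher by 0.25 (SE 0.0907), 0.53 and 0.47, and was called in parietal and occipital tissue. Its second probe set gave 0.55, 0.89 and 0.79. Scn2a, the gene of the main sodium channel of immature cortical axons, was measured by 14 probe sets, whose differences ran from -0.12 to 0.05 in frontal, -0.07 to 0.18 in parietal and -0.31 to -0.09 in occipital tissue. Scn3a lay between -0.16 and 0.06, and Scn7a, at the edge of the stretch, between -0.20 and -0.02. Thus 2 of the 5 channel genes were called in some region, beside 8.43% of all genes, and 3 were not. Both kinds lie side by side on the chromosome. Among the 6 sodium channel genes measured outside the stretch, 1 was called, Scn10a. It fell by 0.38 in frontal tissue (limma adjusted p = 0.0114), where 7.52% of all genes were called.

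**Figure D3:**
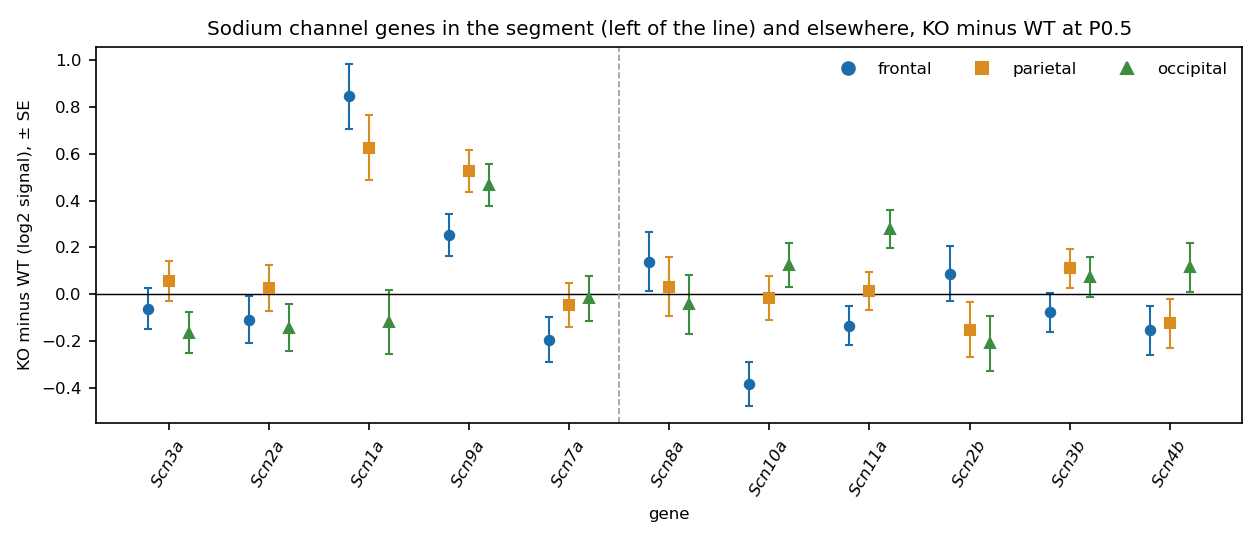
Difference in mean log2 signal between KO and WT with its standard error (vertical axis) for 5 sodium channel genes of the stretch in chromosome order (left of the dashed line) and 6 elsewhere (right), with circles for frontal, squares for parietal and triangles for occipital tissue, n = 4 and 4 arrays. Scn1a at 0.85 in frontal and Scn9a at 0.53 in parietal tissue stand above Scn2a, at -0.14 to 0.03, and Scn7a, at -0.20 to -0.02.

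Csrnp3, a nuclear protein gene between Scn2a and Galnt3, was called lower in frontal tissue and in no other region. Its frontal log2 signal was 10.71, 10.77, 10.68 and 10.65 in KO and 11.07, 11.49, 11.14 and 11.16 in WT. In parietal and occipital tissue KO arrays lay at 10.57 to 10.89 and WT arrays at 10.53 to 10.95. The frontal arrays were thus apart by genotype and the others were mixed, with differences of -0.51 (SE 0.0834), 0.01 and -0.09. The KO level was nearly the same in the 3 regions, at 10.70, 10.77 and 10.65, while the WT level was 11.21 in frontal, 10.76 in parietal and 10.74 in occipital tissue.

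The proteasome offers a direct comparison between a member and its partners, because Psmd14 works as a subunit of the 19S regulatory particle, and 10 other Psmd subunit genes of that particle, listed for this comparison, all lie on other chromosomes. Of these 10 genes, 10 rose in frontal tissue, by 0.33 to 0.86 with a median of 0.63, while Psmd14 was at -0.84. Psmd4, a ubiquitin receptor, rose by 0.86 (limma adjusted p = 2.04e-07), Psmd1, a scaffold of the base, by 0.65 (limma adjusted p = 4.04e-07) and Psmd11, a lid subunit, by 0.73 (limma adjusted p = 1.48e-06). In parietal tissue 3 of 10 rose, Psmd1 by 0.37, Psmd4 by 0.39 and Psmd11 by 0.41 (highest limma adjusted p = 0.0104), and the median was 0.30. In occipital tissue Psmd1 rose by 0.26 (limma adjusted p = 0.0482), a call that was lost without any 1 of the 8 arrays, and the median was 0.19. The differences of the other subunits were largest in frontal tissue, where the Y-linked genes differed most. Frontal tissue also had the largest share of all genes called, 7.52% beside 1.81% in parietal and 1.34% in occipital tissue. The parts of sex and genotype in the frontal rise cannot be told apart, and its cause was not tested. With the Y-linked mean as a covariate 6 of 10 were called in frontal and 0 in occipital tissue. Psmd14 was called in all 3 regions with that covariate, at -0.87, -1.13 and -0.89.

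**Figure D4:**
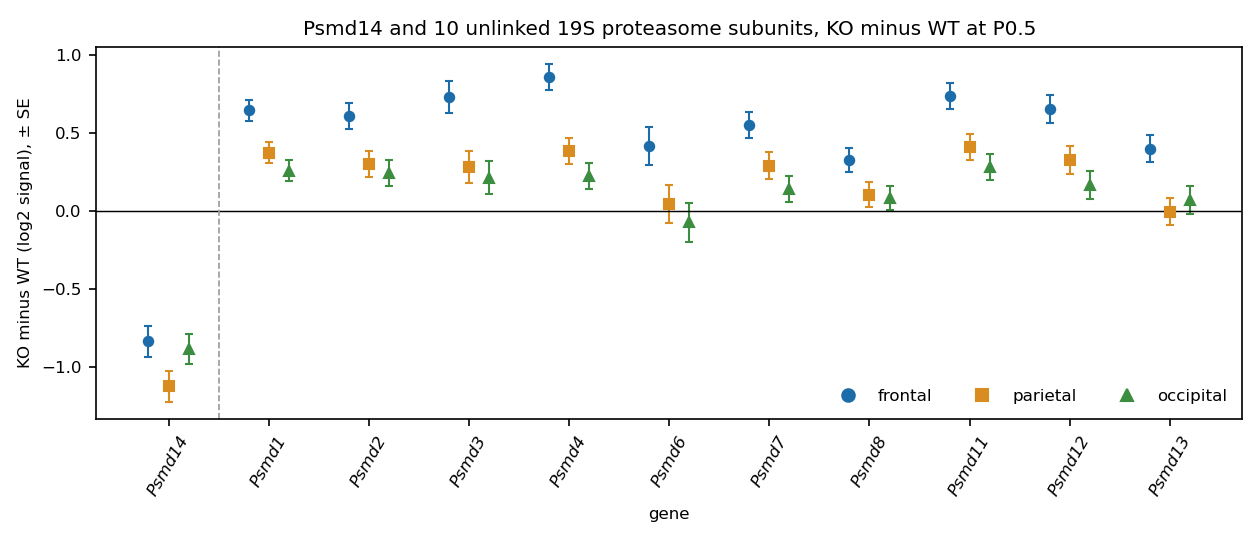
Difference in mean log2 signal between KO and WT with its standard error (vertical axis) for Psmd14 (left of the dashed line) and 10 other 19S proteasome subunit genes (right), with circles for frontal, squares for parietal and triangles for occipital tissue, n = 4 and 4 arrays. Psmd14 lies between -1.12 and -0.84, and the 10 others lie between 0.33 and 0.86 in frontal tissue.

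Some relatives of other members were called too, beside the 7.52%, 1.81% and 1.34% of all genes called in frontal, parietal and occipital tissue. Of 8 measured genes of the Slc4 transporter family outside the stretch, Slc4a4, a sodium bicarbonate cotransporter of astrocytes, rose in occipital tissue by 0.91 (limma adjusted p = 0.0182) and 0 others were called. Of 7 receptors of the TGF-beta superfamily, Acvr2a, which also lies on chromosome 2, rose in all 3 regions, by 0.37, 0.53 and 0.43 (highest limma adjusted p = 0.0247), so that with Tgfbr1 2 of 7 were called in frontal and in parietal tissue (28.6%) and 1 in occipital tissue (14.3%). Tgfbr1 fell by 0.90 in frontal and by 1.01 in parietal tissue (limma adjusted p = 1.03e-04 and 5.92e-05). Of 6 relatives of Kcnh7, 2 were called in frontal and 2 in parietal tissue (33.3% each). Kcnh1 fell by 0.77 in frontal and by 1.09 in parietal tissue, Kcnh2 rose by 0.43 in frontal tissue and Kcnh5 fell by 0.55 in parietal tissue. Of 4 other genes of the dipeptidyl peptidase family, 1 was called in frontal and in parietal tissue (25%), Dpp6, whose product lacks peptidase activity, and it rose by 0.40 in frontal and 0.35 in parietal tissue. None of the 4 measured T-box genes outside the stretch, 6 relatives of Pkp4 and 13 relatives of Tanc1, Rbms1, Baz2b, Grb14, Csrnp3, Fign and Cobll1 was called between KO and WT in any region.

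Chromosome 2 as a whole did not stand out. Its 1699 other measured genes are all those that are not members, the flanks included. Of these, 7.65% were called in frontal, 1.71% in parietal and 1.53% in occipital tissue. Over all genes the shares were 7.52%, 1.81% and 1.34%. Of the 20 measured genes before Cytip, 3, 2 and 1 were called in frontal, parietal and occipital tissue. Lypd6 was called in all 3 regions, at -0.53, -0.63 and -0.61, beside 0.226% of all genes called lower in each. Ermn was called in frontal and parietal tissue and Mmadhc in frontal tissue. Of the 20 after Scn7a, 2, 1 and 0 were called, B3galt1 in frontal and parietal tissue and Phospho2 in frontal tissue. Just outside the stretch lie Ermn, a gene of myelinating cells, at -0.92, -0.97 and -0.22 in the 3 regions, and Gm1322, at -0.05, -0.13 and 0.06. Just inside it, Cytip lay between -0.12 and 0.05 and Scn7a between -0.20 and -0.02. The edge at Cytip thus does not mark an end of the called genes.

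The wild-type arrays show how the members vary over the newborn cortex without the null allele. Between frontal and occipital tissue 6 members were called, beside 6.03% of all genes, 3 higher in frontal tissue (2.26%) and 3 lower (3.77%). Csrnp3 was higher in frontal tissue by 0.48 (SE 0.0834, limma adjusted p = 9.14e-04), Acvr1 by 0.45 (adjusted p = 0.0123) and Pkp4, a junction protein of the armadillo family, by 0.41 (adjusted p = 0.00924). Scn1a was lower by 0.66 (adjusted p = 0.00552), Galnt3, a glycosyltransferase, by 0.42 (adjusted p = 0.00137), and Grb14, an adaptor that inhibits the insulin receptor, by 0.32 (adjusted p = 0.048). Of these, Csrnp3, Pkp4 and Galnt3 did not overlap between the regions. With Upp2, which was not called, 3 members lay higher without overlap (6.21% of all genes) and 1 lower (6.36%). The call of Grb14 was lost without any of 6 of the 8 arrays, and that of Acvr1 without WT frontal replicate 3.

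Between frontal and parietal tissue 1 member was called, beside 0.171% of all genes, Csrnp3, at 0.45 (adjusted p = 0.00981). That call was lost without WT frontal replicate 2 or WT parietal replicate 4. Between parietal and occipital tissue 1 member was called, beside 0.451% of all genes, Galnt3, at -0.42 (adjusted p = 0.00617). With same-numbered arrays as a block, 2 members were called there, Acvr1 and Galnt3. Psmd14, Tbr1, Slc4a10 and Gcg passed in none of the 3 comparisons of WT regions. Their differences between WT frontal and occipital tissue were -0.13, 0.24, -0.03 and 0.30, each smaller than the difference between KO and WT in either region.

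Differences between regions in the KO effect are taken between values that the rule names, so their p-values are a description. The frontal effect also holds the difference in sex-linked transcripts. The KO effect was called different between frontal and occipital tissue for 2 members, Rbms1 and Scn1a, beside 0.416% of all genes. For Rbms1 it was larger in frontal tissue by 0.70 (SE 0.137, limma adjusted p = 0.0181), and for Scn1a by 0.96 (SE 0.196, limma adjusted p = 0.0256). Both calls were lost with the Y-linked mean as a covariate (highest limma adjusted p = 0.137 over all alternatives), and without KO frontal replicate 4, WT occipital replicate 2 or WT occipital replicate 3. The call of Scn1a was also lost without KO occipital replicate 3 or WT frontal replicate 4. Between the other pairs of regions 0 members were called for such a difference, beside 0.01% of all genes. For Slc4a10 the frontal increase exceeded the occipital one by 0.12 (SE 0.104, limma adjusted p = 0.483). For Psmd14 the frontal decrease was smaller than the occipital one by 0.05 (SE 0.14, limma adjusted p = 0.846). Neither difference passed. Fap and Csrnp3 also differed in size between these regions, by 0.73 and -0.42, without passing (limma adjusted p = 0.0842 and 0.108).

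At E14.5 limma called 0 of 36 members between KO and WT, and 0 of all 18194 genes (0%). At an unadjusted p of 0.05, 5 members passed, 13.9%, beside 5.76% of all genes. Wdsub1 and Cd302 were higher in KO (3.32% of all genes) and Tbr1, Gca and Csrnp3 lower (2.44%). Cd302 and Gca lay below the array medians on every E14.5 array, and at such levels a difference says little. Gca was also higher, not lower, in KO in all 3 regions at P0.5. The arrays did not overlap for Tanc1, Wdsub1 and Kcnh7, higher in KO (7.43% of all genes), and for Tbr1 and Cobll1, lower in KO (3.74%). KO replicate 1 stood apart, with 28.4% of genes over 0.5 from the mean of the other 2 KO arrays, and KO arrays differed among themselves more (11.6% to 28.4%) than WT arrays (4.16% to 7.65%). Beside these differences the 5 meningeal and fibroblast markers had a median of 1.53 higher in KO, 4 of 5 without overlap, and the 3 thalamus markers a median of 1.06. The 5 measured markers of cortical glutamatergic neurons had a median of -0.57, and their mean level was 8.05 to 8.73 on KO and 8.81 to 9.38 on WT arrays, without overlap. The 5 interneuron markers had a median of -0.43. The part of these markers was not tested.

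Tbr1 at E14.5 had a log2 signal of 8.69, 7.23 and 7.57 in KO and 9.36, 8.89 and 9.11 in WT, with no overlap and a difference of -1.29 (SE 0.368). Psmd14 stood at 7.54, 9.59 and 9.26 in KO and 9.40, 9.36 and 9.67 in WT. The difference of -0.68 (SE 0.491) came from KO replicate 1 and was -0.05 without it, so the genotypes, apart at P0.5, overlapped at E14.5. Slc4a10 stood at 4.88, 5.31 and 5.70 in KO and 4.96, 4.94 and 5.11 in WT. It was 0.30 higher in KO (SE 0.203), or 0.50 without KO replicate 1, with overlapping arrays. Csrnp3 stood at 5.83, 5.01 and 7.52 in KO and 7.60, 7.19 and 7.90 in WT, a difference of -1.45 (SE 0.578) in which KO replicate 3 lay among the WT arrays. Without that array the difference was -2.14, and another probe set of the gene gave 0.08. Across the 36 members, 25 had the same sign at E14.5 as in the mean of the P0.5 regions, and of the 11 called at P0.5, 7 did. The share of all genes with the same sign was not counted, so these counts are not read as agreement between the stages. Gcg, Fap, Ifih1 and Scn9a lay at or below 4.38 on every E14.5 array, beside array medians of 5.12 to 5.15. At such levels a sign says little. The 2 stages were measured on different array types, so sizes are not set against each other.

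**Figure D5:**
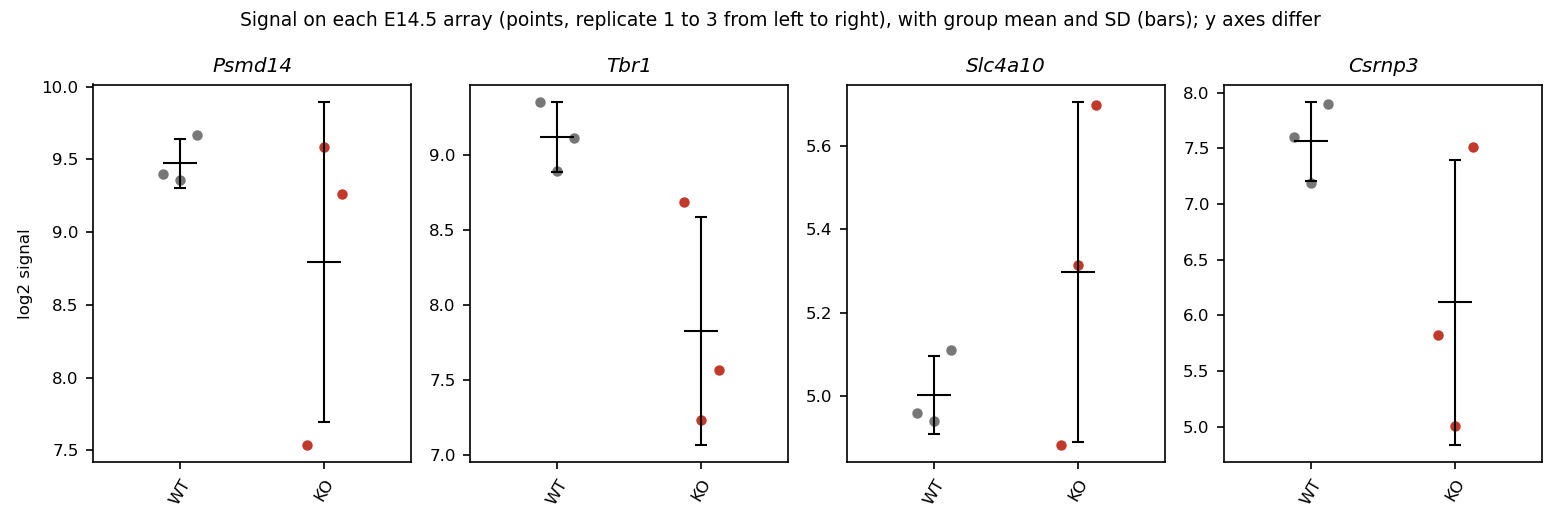
Log2 signal (vertical axis, a scale of its own for each gene) of Psmd14, Tbr1, Slc4a10 and Csrnp3 on the 3 WT (grey) and 3 KO (red) arrays of E14.5 neocortex, with points in the order of replicates 1 to 3 from left to right and the mean and SD as bars. KO replicate 1 alone is low for Psmd14, at 7.54, and of these 4 genes the genotypes are apart for Tbr1 only.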

How the data were processed

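Each stage has 1 table of deposited log2 signals by probe set, which the authors made with Affymetrix Expression Console 1.1 and RMA, per the submitters' processing notes. The E14.5 and P0.5 tables hold different sets of probes. Probe sets that name 1 gene were kept, and each gene was represented by its probe set of highest mean, which left 3 P0.5 probe sets naming a member with another gene out. Members and lists were chosen with earlier results of these data known. The order of genes along the chromosome and the promoter windows came from RefSeq (GRCm38.p6). The build behind the arrays is not given in the sources used here.

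The 24 P0.5 arrays were fitted together by group, and the 6 E14.5 arrays apart, with limma 3.58.1 (R 4.3.3, intensity trend). P-values were adjusted by Benjamini-Hochberg over all genes of a table and called under 0.05. The fit was tested on simulated data. SD is over arrays and SE from the fit. No dim genes were left out. The number of arrays limits the precision, and as nothing says that arrays of a group came from separate animals, p-values measure the spread between arrays. Per-array values are given for Tbr1, the 2 nearest members on each side, and members apart by genotype in all regions. Those of Rbms1, Scn1a and Csrnp3 were added with values known. All called members are named, and relatives only where called, up to 3 a family.

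Same-numbered arrays were checked for pairing by correlating residuals. All 3 E14.5 pairs (0.125 to 0.445) and all 4 WT parietal and occipital pairs (0.124 to 0.276) lay over 0.1. In the other comparisons at least 1 pair did not.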

Additional observations from a re-analysis of the deposited data

Results flagged for a closer look

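Rbms1 on WT frontal replicate 2 lay at 7.96 on the log2 scale, apart from the other 3 arrays of its group at 8.21 to 8.26. It was the only such array among 78 groups of 4 arrays checked for the members named, and chance alone would set such an array apart in about 1 group in 20. By the interaction term, the KO effect was called different between frontal and occipital tissue for Rbms1 by 0.70 (limma adjusted p = 0.0181). For Scn1a it was called different by 0.96 (limma adjusted p = 0.0256). The rule names the values behind these p-values, so they are a description. Both calls were lost with the Y-linked mean as a covariate. They were also lost without KO frontal replicate 4, WT occipital replicate 2 or WT occipital replicate 3. In frontal tissue, sex and genotype cannot be told apart. All 4 KO arrays lay above all 4 WT arrays in frontal tissue for both genes, and the genotypes overlapped in occipital tissue.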

How the results depend on the processing

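Psmd14, Tbr1 and Slc4a10 were called between KO and WT in each P0.5 region under all 8 alternatives and without any 1 array, and no called result turned its direction. Small differences that were not called did cross 0 in some settings, such as Tank in parietal (0.23 to -0.01), Dpp4 in frontal (0.08 to -0.05) and Fap in occipital tissue (0.03 to -0.01). With the Y-linked mean as a covariate, 3 members instead of 6 were higher in frontal tissue, and 0 instead of 2 differed between frontal and occipital tissue in the KO effect. Without the dimmest 30% of genes 3 instead of 5 were higher in parietal tissue, since Fap and Ifih1 were then not tested. Between WT parietal and occipital tissue 2 members instead of 1 were called with the mean of probe sets, without the dimmest genes, or with replicate number as a block, and 4 with array weights. Array weights also called 2 between WT frontal and parietal tissue and 1 for the difference in KO effect between parietal tissue and each other region (Csrnp3 against frontal, Scn1a against occipital). A fit of only the arrays compared called 2 between WT frontal and occipital tissue (Pkp4 and Csrnp3), 0 between WT frontal and parietal tissue, and 1 for the frontal against occipital KO effect (Rbms1). Of the 19S subunits, 5 (without dim genes) or 7 (array weights) rose in parietal tissue, and in occipital tissue 2 with array weights and 0 with array medians subtracted, no intensity trend, the block, the covariate or only the arrays compared; counts of these subunits were added after seeing the data.

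Leaving out 1 array at a time gave 5 to 6 higher and 3 lower members in frontal tissue, 3 to 7 and 2 to 3 in parietal tissue (3 higher without KO replicate 4), and 2 to 3 of each in occipital tissue. It gave 4 to 7, 0 to 1 and 1 to 3 members for WT frontal against occipital, frontal against parietal and parietal against occipital tissue (2 without WT occipital replicate 1 and 3 without replicate 3), and 0 to 3 for the frontal against occipital KO effect. For the 19S subunits it gave 8 to 10 in frontal, 3 to 5 in parietal (5 without KO replicate 3) and 0 in occipital tissue, and at E14.5 it gave 0 members and 0 subunits.

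The block by replicate number gave 1438 calls over all genes instead of 1499 in frontal, 376 instead of 361 in parietal and 278 instead of 267 in occipital tissue between KO and WT, and 0 at E14.5 with and without it. For same-numbered KO and WT arrays at P0.5, the labels give no link other than the number. The cause of these shifts was not tested. Gcg, Fap and Ifih1 are dim, and depth does not apply to arrays.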
